A study of Homo sapiens with 3 samples.

Results

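The genes described here are 8 genes of lipid and cholesterol synthesis, FASN, SCD, ACLY, ACACA, HMGCS1, INSIG1, SQLE and FDFT1, taken by name. Where the RefSeq transcript in a peak's annotation could be paired with a gene name in the files, the peak was given to that gene, and otherwise to the gene name of its row. Of these 8 genes, 4 had a peak in at least 1 list, and together they held 142 of the 46819 peaks in the series, which fell on 3580 genes in all. Ribosome profiling sequences the stretches of mRNA that a bound ribosome shields from nuclease, and it was performed here in HEK293T, a line derived from human embryonic kidney. The cells carried 1 of 3 transiently transfected constructs for 24 h: empty pCDNA3.1 vector, the RNA helicase DDX3X in its wild-type form with a FLAG tag, or the same tagged helicase with G325E, a substitution found in medulloblastoma. There was 1 library per construct and so no replicate, and differences between lists cannot be set against the spread between cultures.

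All cells were treated alike before lysis, and the endogenous DDX3X gene was present in every group. Per the labels, harringtonine, which arrests ribosomes as they begin translation, was given at 2 µg/ml for 90 s ahead of cycloheximide at 100 µg/ml, which stops elongating ribosomes. The study's methods name cycloheximide alone, and the files do not settle which treatment was used, so a peak near a start codon cannot be read as an arrested initiating ribosome. The labels also call the cell type neuronal. Of 8 neuronal marker genes, 0 had a peak in any list, and of 8 epithelial and kidney marker genes, KRT8 and KRT18 had peaks, all 12 in the wild-type list.

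Fatty acids are built from acetyl-CoA. ACLY makes cytosolic acetyl-CoA from citrate, ACACA carboxylates it to malonyl-CoA, FASN assembles palmitate from these units, and SCD places a double bond in the saturated chain. Cholesterol is built from the same precursor through HMGCS1, which forms HMG-CoA, FDFT1, which joins farnesyl units into squalene, and SQLE, which oxidises squalene, while INSIG1 holds the sterol sensor SCAP and its SREBP partner in the endoplasmic reticulum when sterols are plentiful.

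Sequences under peaks that lists share, and under peaks found in 1 list only, are shown as DNA letters of GRCh37, the build of the files, read along the mRNA. Capitals mark bases covered in every list named on the line, except in SCD exon 1, where they mark the start codon, and the lines in lower case come from the longest peak found in 1 list only. The FASN line for wild-type and G325E was chosen after its values were seen.
ACLY exon 13, all lists, chr17:40054015-40054044, minus strand: GAGGTGGCGCCTGCAAAGAAGGCCAAGCCT
ACLY exon 12, all lists, chr17:40054936-40054965, minus strand: GGGCCACCGGCCCATCCCCAACCAGCCACC
FASN exon 22, wild-type and G325E, chr17:80044239-80044268, minus strand: GGCGCAGGTGCTGGCCCAGGAGAGGCCCAA
FASN exon 33, wild-type, chr17:80040962-80040991, minus strand: gtgcttgcggaggagccggaggcagtgctg
FASN exon 20, G325E, chr17:80045287-80045316, minus strand: gtccatcctgggctcggccaagcacggcct
SCD exon 4, wild-type, chr10:102114202-102114231, plus strand: gctcgtgaccaccgtgcccaccacaagttt
SCD exon 1, G325E, chr10:102107250-102107279, plus strand: ccgagagccaagATGccggcccacttgctg
The ACLY exon 13 stretch lay in a peak of 42 bp with the same start and end in all 3 lists. The FASN exon 33 stretch came from a peak of 99 bp that wild-type alone held, and the FASN exon 20 stretch from a peak of 132 bp that G325E alone held. The SCD exon 1 peak was 203 bp long and ran across the start codon.

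The vector library had 11219 peaks on 2022 genes, the wild-type library 19920 on 3006 genes and the G325E library 15680 on 2310 genes, with median lengths of 29 to 30 bp. They gave positions only, with no height or read count, so the reads behind a peak are unknown and a gene with 0 peaks may still have been translated. The libraries differed in depth: the study's supplement tabulates the most non-duplicated mapped reads for wild-type and the fewest for G325E, with vector between them, and the part of depth in the peak numbers was not tested. GAPDH, a glycolytic enzyme that every cell uses, was listed at 0 in vector and G325E but reached 41 peaks in wild-type, whereas ACTB, cytoplasmic actin, had 25, 25 and 26. DDX3X itself was listed at 0 in vector, with 32 wild-type peaks and 9 G325E peaks. The authors' peak numbers followed genome order in each list, and some were missing: 14.8% of the vector numbers, 13.5% of the wild-type numbers and 0 of the G325E numbers. A search for missing numbers over a gene can therefore find none in G325E and is informative for vector and wild-type only.

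Of the 4 members with peaks, ACLY had the most similar numbers across constructs, with 8 vector peaks, 11 wild-type peaks and 7 G325E peaks. The gene lies on chromosome 17 (GRCh37, 40023171 to 40075204, minus strand, 29 exons in the canonical transcript). The 95% exact Poisson intervals, which like all intervals here cover counting error only, were 3.45 to 15.8 for vector, 5.49 to 19.7 for wild-type and 2.81 to 14.4 for G325E. These intervals overlapped. Coding exons 12 and 13 held 5 peaks in each list, and 166 coding bases, 5.03% of the ACLY coding sequence, were under a peak in all 3 lists. Those shared bases had a GC content of 65.1%, against 54.2% for the 2930 coding bases under no peak.

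Outside exons 12 and 13 the ACLY lists differed. Exon 17 held 3 vector peaks, 2 wild-type peaks and 0 G325E peaks, exon 15 held 3 peaks in wild-type alone, and the other 2 G325E peaks were intronic, downstream of exon 13. All ACLY coding peaks lay in the middle of the 3 equal parts of the coding sequence, from codon 396 to codon 624. After scaling to the same total number of peaks, G325E over wild-type was 0.808 (95% exact binomial interval 0.266 to 2.28). The same ratio was 0.626 for G325E over vector (0.193 to 1.98) and 0.774 for wild-type over vector (0.284 to 2.22). No ACLY ratio passed 2-fold, and each interval included equal scaled numbers, and each turned direction under at least 1 other setting (1.04, 1.00 and 1.15). The last 2 ratios share the vector list, as do all pairs of ratios over vector below. The peaks in exon 17 carry the neighbouring gene KLHL11 in the gene name column, 3 in vector and 2 in wild-type. Of the 3 in vector, 1 lay on the strand opposite to ACLY.

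ACACA, which makes the malonyl-CoA that FASN uses, was listed at 0 in all 3 lists. It spans chromosome 17 from 35441927 to 35766927 on the minus strand, and its coding GC content was 47.5%. Between the peaks that flank it, 3 vector numbers and 3 wild-type numbers were missing, so rows absent from the vector and wild-type lists cannot be told apart from peaks that were never called there.

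FASN, the multidomain synthase of palmitate, was listed at 0 in vector and had 45 peaks in wild-type and 31 in G325E (Poisson intervals 32.8 to 60.2 and 21.1 to 44.0). The gene lies on chromosome 17 (80036214 to 80056112, minus strand, 43 exons, 7533 coding nt). Its wild-type number was the third highest of the 3006 genes with peaks in that list, and its G325E number ranked 6 of 2310. The vector peaks on either side of FASN carry the consecutive numbers 5778 and 5779, so no missing number falls between them, and the wild-type and G325E numbers run without a gap over the gene. The vector list is therefore at 0 over FASN as the authors numbered it. Such a pattern was not unique to FASN: 22 genes had 30 or more wild-type peaks, and 5 of these were listed at 0 in vector, namely AKAP12, DDX3X, FASN, GAPDH and SCRIB.

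**Figure D1:**
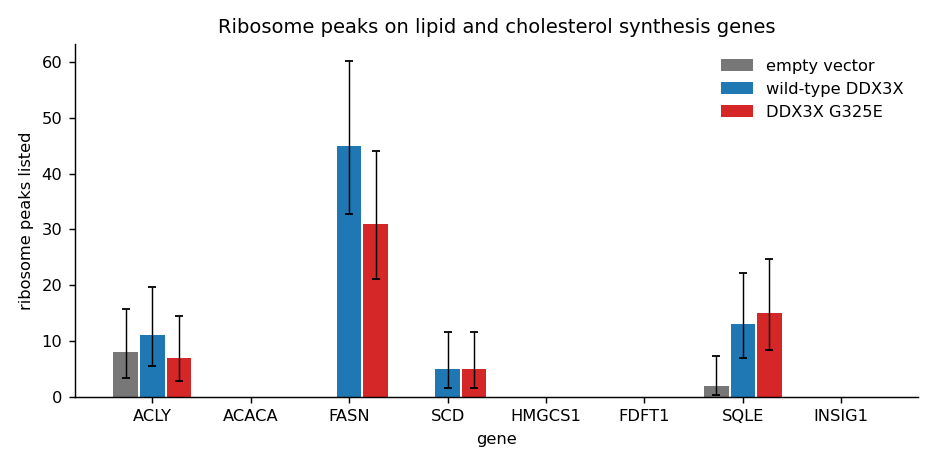
Number of ribosome peaks listed on each of the 8 genes (horizontal axis) in the empty vector, wild-type DDX3X and DDX3X G325E libraries, 1 library each; error bars are 95% exact Poisson intervals of the counts and cover counting error only. FASN reached 45 and 31 peaks with 0 in vector, SQLE had 2, 13 and 15, ACLY had 8, 11 and 7, and ACACA, HMGCS1, FDFT1 and INSIG1 had 0 in every list.

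Between wild-type and G325E the number of FASN peaks was similar but their place was not. The scaled ratio of G325E over wild-type was 0.875 (exact binomial interval 0.535 to 1.41). The coding sequence was cut into 3 equal parts. Of 39 coding peaks in wild-type, 6 lay in the first part, 5 in the middle part and 28 in the last part. Of 29 coding peaks in G325E, 10 lay in the first part, 19 in the middle part and 0 in the last part. The wild-type peaks ran from codon 643 to codon 2484 and the G325E peaks from codon 356 to codon 1373, in a protein of 2511 codons.

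The FASN peaks came in blocks of neighbouring exons. In wild-type these were exons 12 to 14 with 6 peaks, exons 22 and 23 with 5, exons 31 to 33 with 11 and exons 39 to 43 with 17. In G325E they were exons 9 and 10 with 10 peaks and exons 17 to 23 with 19. Only exons 22 and 23 held coding peaks in both lists, and 22 of the 42 coding exons held none in either. Peaks within a block were close together: 84.1% of the gaps between successive wild-type peaks and 73.3% of those between G325E peaks were under 100 bp.

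**Figure D2:**
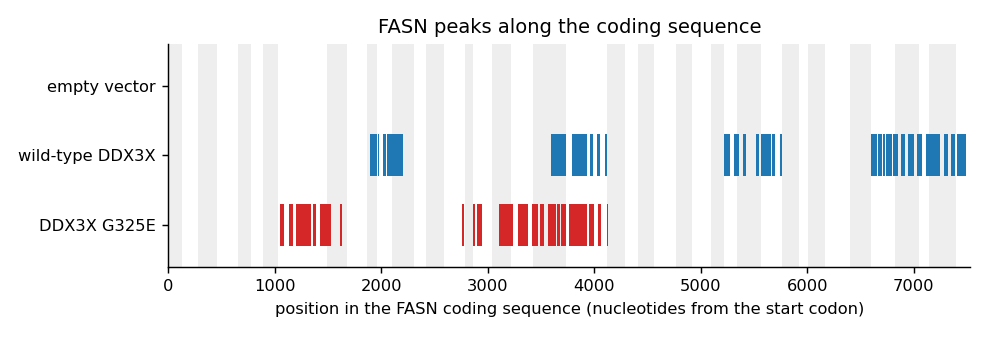
FASN peaks along the spliced coding sequence (horizontal axis, nucleotides from the start codon) in each library (rows), with coloured bars covering the bases of each peak and grey bands marking even-numbered exons. The empty vector row is bare, the wild-type peaks form 4 blocks that reach the end of the coding sequence, and the G325E peaks form 2 blocks that stop by codon 1373 and meet a wild-type block only in exons 22 and 23.

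Of the FASN coding sequence, 1541 bases (20.5%) were under a wild-type peak, 1121 bases (14.9%) under a G325E peak, and 287 bases (3.81%) under both. The shared bases had a GC content of 72.1%, the bases under G325E alone 68.8%, the bases under wild-type alone 65.8%, and the 5158 bases under no peak 64.2%. In the sequences above, the shared stretch of exon 22 was 73.3% GC and the stretches found in 1 list only were 70.0% GC. At the level of whole peaks, 10 of 31 G325E peaks on FASN shared 1 bp or more with a wild-type peak (32.3%, 95% Wilson interval 18.6 to 49.9%), and 6 of 45 wild-type peaks overlapped a G325E peak (13.3%). Across 230 genes with at least 10 peaks in both lists, the median share of G325E peaks overlapping a wild-type peak was 71.4%. Of these genes 9, FASN included, had a share as low as the 32.3% of FASN. The share of wild-type peaks overlapping a G325E peak was not computed over all genes, so the 13.3% has no background here.

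The mean coding position, from 0 at the start codon to 1 at the stop codon, was 0.72 ± 0.24 in wild-type (SD over 39 FASN peaks) and 0.37 ± 0.14 in G325E (SD over 29 peaks). Peaks of 1 gene in 1 library are not replicates. Among 49 genes with at least 10 coding peaks in both lists, FASN had the lowest difference of G325E minus wild-type, -0.352, with a median difference of -0.00907 and the next lowest at -0.293. FASN held 0 peaks in the 5′-UTR or at the transcription start site in any list. The other FASN peaks were intronic, 6 in wild-type and 2 in G325E, and 1 G325E peak lay on the strand opposite to the gene. In the gene name column, 18 wild-type FASN peaks carry the neighbouring gene DUS1L, and counting by that column alone gave 1.46 in place of 0.875 for G325E over wild-type. Scaling to the peaks in 5′-UTR, coding and 3′-UTR classes gave 1.13, and counting only those peaks gave 1.22.

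**Figure D3:**
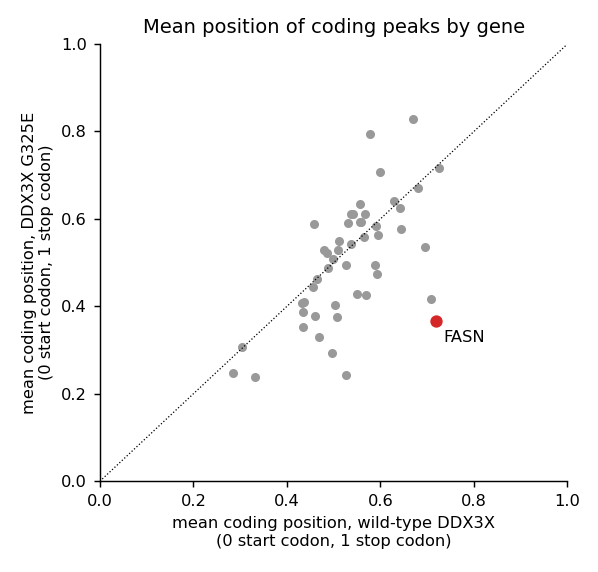
Mean position of coding peaks in wild-type (horizontal axis) and in G325E (vertical axis) for the 49 genes with at least 10 coding peaks in both lists, each point 1 gene, 0 the start codon and 1 the stop codon; the dotted line marks equal positions. FASN lies at 0.72 and 0.37, the farthest below the line.

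The 5 genes whose peak numbers over the 3 lists were most like those of FASN, out of 724 others with at least 20 peaks in all, were AKAP12, SCRIB, RANBP9, ZIC2 and DDX3X. The measure was the sum over lists of the absolute difference in log2(peaks + 0.5), and it was 0.86 for AKAP12 and 2.21 for DDX3X. In the order vector, wild-type, G325E, AKAP12 had 0, 33 and 23 peaks and SCRIB 0, 31 and 12. All 5 were listed at 0 in vector, as FASN was, but the vector number was part of the measure that picked them.

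SCD, the desaturase that acts after FASN, was listed at 0 in vector and had 5 peaks in wild-type and 5 in G325E (Poisson interval 1.62 to 11.7 for each). The gene lies on chromosome 10 (102106990 to 102124583, plus strand, 6 exons). No peak number was missing from any list over SCD, the flanking vector peaks being numbered 1754 and 1755. The scaled ratio of G325E over wild-type was 1.27 (0.292 to 5.52), an interval too wide to separate a change in either direction. It was 2.80 by bases covered and 2.00 by longest peaks.

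The 5 wild-type and 5 G325E peaks on SCD did not overlap at all (0 of 5, Wilson interval 0 to 43.4%). Over all genes with peaks in both lists, 59.5% of G325E peaks overlapped a wild-type peak. All wild-type SCD peaks lay in coding exon 4, from codon 148 to codon 207, and covered 136 coding bases. In G325E, 4 peaks were annotated to the 5′-UTR and 1 to an intron. Of these 4, the peak of 203 bp and a peak of 52 bp lay on the 5′-UTR of the canonical transcript, and the other 2 were centred 14 and 110 bp upstream of its first base. The G325E peaks covered 235 of the 272 nt of the SCD 5′-UTR (86.4%) and 25 coding bases. The mean GC content of the 31 nt around peak midpoints was 49.0% ± 4.21 in wild-type and 70.3% ± 7.36 in G325E (SD over 5 peaks each). In each list 2 of the 5 SCD peaks lay on the strand opposite to the gene, and the 203 bp peak on the start codon lay on its own strand.

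HMGCS1, which commits acetyl units to the sterol route, and INSIG1, the sterol-dependent brake on SREBP, were listed at 0 in all 3 lists, as was FDFT1, the squalene synthase. HMGCS1 (chromosome 5, 43287572 to 43313514) had no missing number between its flanking peaks in any list. INSIG1 (chromosome 7, 155089588 to 155101945) had 2 numbers missing in vector, between flanking peaks 2956 kb below and 149 kb above the gene, and 0 in wild-type and G325E. The coding GC content was 42.6% for HMGCS1, 58.0% for INSIG1 and 49.6% for FDFT1, a range that spans most of that of the members with peaks.

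SQLE, a rate-limiting oxygenase of cholesterol synthesis, had 2 vector peaks, 13 wild-type peaks and 15 G325E peaks (Poisson intervals 0.24 to 7.22, 6.92 to 22.2 and 8.40 to 24.7). The gene lies on chromosome 8 (126010747 to 126034525, plus strand, 11 exons), with a 5′-UTR of 899 nt in the canonical transcript, and 1 wild-type number was missing over it. The scaled ratio over vector was 5.37 for G325E (exact binomial interval 1.25 to 48.4) and 3.66 for wild-type (0.829 to 33.4). The lower bound passed 1 for G325E and not for wild-type. This contrast rests on 2 vector peaks and on a G325E number that includes 5 peaks upstream of the canonical transcript. Counting only peaks annotated within the mRNA gave 3.97 for G325E over vector and 3.50 for wild-type over vector. No interval is given for these values. The ratio of G325E over wild-type was 1.47 (0.651 to 3.35). The last ratio was 0.625 when the same number of longest peaks was taken from each list and 0.905 by bases covered, so its direction depended on how peaks were counted. By longest peaks, G325E over vector was 2.50.

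Between wild-type and G325E the SQLE peaks differed in place, with similar numbers. Both vector peaks were coding, in exon 1. In wild-type, 6 peaks were coding, in exons 1 and 2, and 7 lay in the 5′-UTR. In G325E, 0 were coding, 9 were annotated to the 5′-UTR and 6 to the promoter-TSS class, which the annotation uses near a transcription start. On the canonical transcript 10 G325E peaks lay in the 5′-UTR and 5 upstream of its first base, the farthest by 724 bp. No SQLE peak in any list covered the start codon, although the nearest covered base lay 2 nt before it in wild-type and 9 nt before it in G325E.

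Within the SQLE 5′-UTR the wild-type and G325E lists overlapped. Wild-type peaks covered 343 of its bases (38.2%), G325E peaks 368 (40.9%), and 252 bases were covered in both. Of the 15 G325E peaks, 6 shared bases with a peak of the wild-type list (40.0%, Wilson interval 19.8 to 64.3%) and 0 with a vector peak, whereas both vector peaks shared bases with the wild-type list. The median share over wild-type was 71.4% across 230 genes with at least 10 peaks in both lists. Of these genes 18, SQLE included, had a share as low as that of SQLE. Over all genes with peaks in both lists, 54.9% of G325E peaks overlapped a vector peak. From wild-type to G325E the share of SQLE peaks in the 5′-UTR and promoter-TSS classes was 46.2 percentage points higher. Of 230 genes with at least 10 peaks in both lists, 6 had a difference as high, SQLE included, and the median difference was 0. The 31 nt around SQLE peak midpoints averaged 61.3% GC for vector, 60.3% for wild-type and 67.7% for G325E, against 44.0% for the coding sequence and 58.1% for the 5′-UTR. On the strand opposite to the gene lay 0, 2 and 3 of the SQLE peaks.

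**Figure D4:**
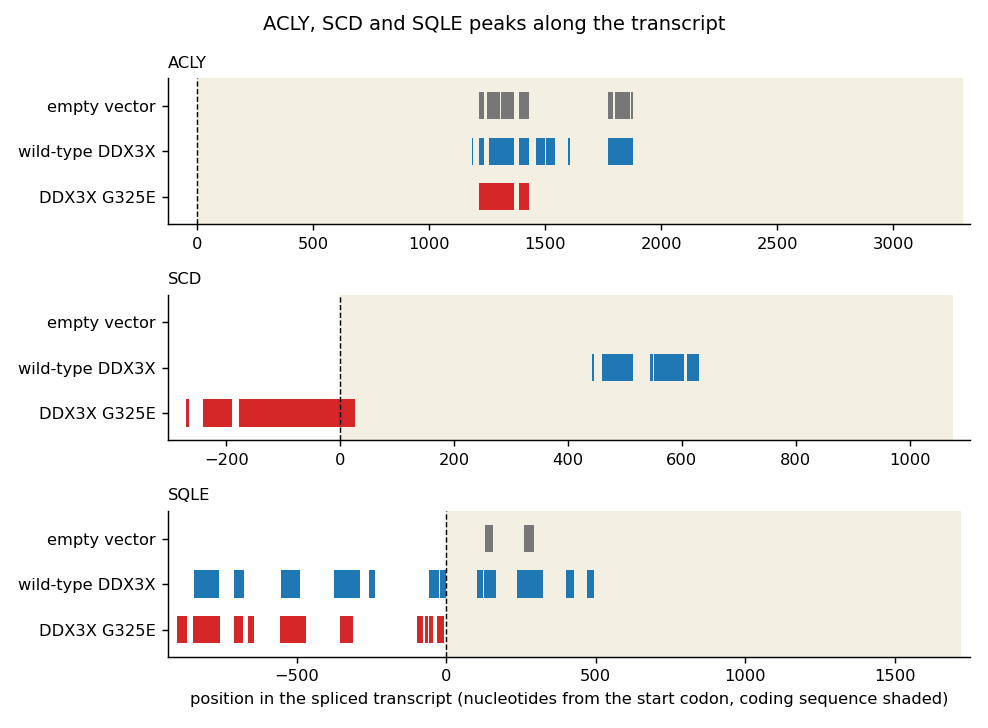
Peaks of ACLY, SCD and SQLE along the spliced transcript (horizontal axes, nucleotides from the start codon at the dashed line, coding sequence shaded) in each library (rows); peaks outside exons are not drawn. ACLY peaks lie within codons 396 to 624 in all libraries, SCD peaks lie in exon 4 in wild-type and over the 5′-UTR and start codon in G325E, and SQLE peaks lie on both sides of the start codon in wild-type but before it in G325E.

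Numbers of coding peaks were compared between members per length. They are not levels of translation, because the reads behind a peak are unknown and 1 stretch of signal can be split into several peaks. In wild-type, coding peaks per kb of coding sequence were 5.18 for FASN, 4.64 for SCD, 3.48 for SQLE and 3.03 for ACLY. In G325E the densities were 3.85 for FASN and 1.51 for ACLY, with 0 coding peaks on SCD and SQLE. In vector they were 2.42 for ACLY and 1.16 for SQLE, with 0 on the other members. With 5 peaks on SCD and 6 on SQLE in the coding sequence, neighbours in these orders differ by no more than a few peaks.

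Summed over the 8 genes, the members held 10 vector peaks, 74 wild-type peaks and 58 G325E peaks. These were 0.0891% of all vector peaks (Wilson interval 0.0484 to 0.164%), 0.371% of wild-type peaks (0.296 to 0.466%) and 0.370% of G325E peaks (0.286 to 0.478%). The vector share lay below both others and their intervals did not overlap its own. These intervals treat each peak as a separate draw although FASN peaks came in blocks, so their separation does not establish a difference between constructs. FASN supplied 45 of the 74 wild-type peaks and 31 of the 58 G325E peaks, so the sum mainly follows that gene.

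Read against all genes, the comparison with vector was less distinct. Among genes with at least 3 peaks over the lists compared, and with 0.5 added to each number, 3 of the 4 members with peaks (FASN, SCD and SQLE) were at least 2-fold higher in G325E than in vector, where 34.2% of 2518 genes were. The same 3 were at least 2-fold higher in wild-type than in vector, where 32.1% of 2683 genes were. No member was at least 2-fold lower, against 24.6% of genes for G325E over vector and 16.5% for wild-type over vector. Most such calls rested on a list at 0: of 862 genes higher in G325E than in vector, 750 were at 0 in vector, and of 862 higher in wild-type, 787 were. Scaling by the median ratio changed the wild-type counts from 862 higher and 444 lower to 984 and 171, and the same 3 members were higher. FASN and SCD are among these, and no fold is given for them.

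Between G325E and wild-type, 0 of the 4 members were at least 2-fold higher and 0 were at least 2-fold lower, where 25.4% and 33.6% of 3072 genes were. The median log2 ratio of the members was 0.08 and that of all genes was 0.00. By coding GC content, FASN (65.3%) lay in the highest of 4 equal bins of genes with peaks, ACLY (55.2%) in the next, SCD (51.0%) below it and SQLE (44.0%) in the lowest. In the bin of FASN 221 of 675 genes were at least 2-fold higher in G325E than in wild-type and 162 lower, and in the bin of SQLE 144 of 572 genes were higher and 223 lower. GC content was available for 81.3% of genes with peaks.

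**Figure D5:**
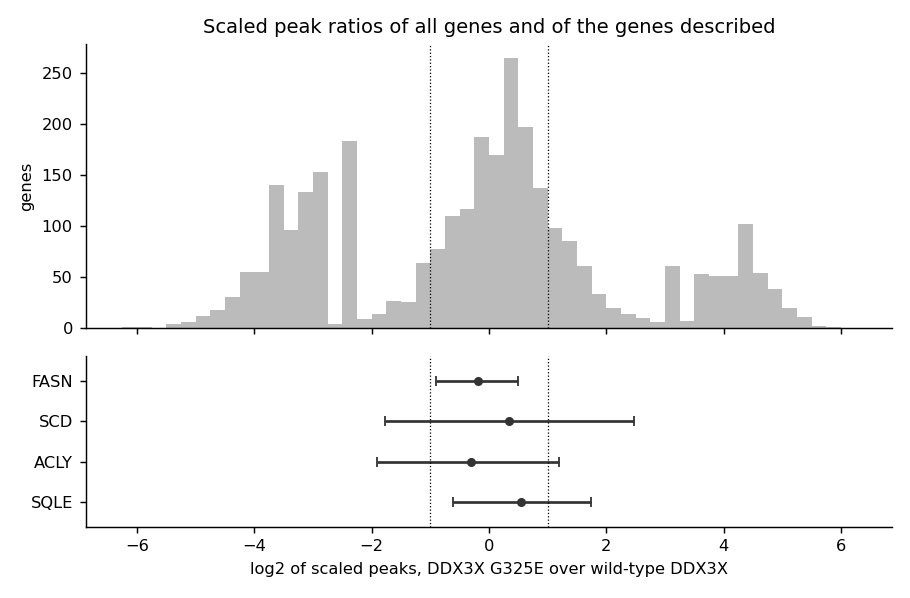
Upper panel, number of genes (vertical axis) by log2 of the scaled peak ratio of G325E over wild-type, with 0.5 added to each number, for the 3072 genes with at least 3 peaks over both lists; the outer humps are genes at 0 in 1 list. Lower panel, the ratio of each member with peaks, with nothing added, and its 95% exact binomial interval; dotted lines mark 2-fold, and all 4 members lie between them.

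The regions of the members' peaks differed between lists. The coding class took 10 of 10 vector peaks (Wilson interval 72.2 to 100.0%), 59 of 74 wild-type peaks (79.7%, 69.2 to 87.3%) and 34 of 58 G325E peaks (58.6%, 45.8 to 70.4%). Over all peaks the coding shares were 49.5%, 51.6% and 35.6% in the same order. The 5′-UTR and promoter-TSS classes together took 0 of 10, 7 of 74 (9.46%) and 19 of 58 (32.8%) of the members' peaks, against 28.1%, 26.3% and 43.4% of all peaks. In wild-type all 7 of these peaks were on SQLE, and in G325E they were 15 on SQLE and 4 on SCD.

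The base composition of peaks differed between lists. With 1 library per construct, this difference cannot be assigned to the construct. The 31 nt around the members' peak midpoints averaged 61.0% ± 7.52 GC for vector, 63.8% ± 10.3 for wild-type and 68.2% ± 9.55 for G325E (SD over 10, 74 and 58 peaks). Over all peaks the means were 62.7%, 62.3% and 73.1%. The part of this difference in the placement of the FASN, SCD and SQLE peaks was not tested.

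The remaining genes of lipid synthesis came from 4 lists that hold 83 genes, members included. Of the 75 beside the members, 17 had a peak in any list. Of these, 15 could be compared between G325E and wild-type, and 5 were at least 2-fold higher and 6 at least 2-fold lower. Over vector, 5 of 14 were higher and 6 lower for G325E, and 3 of 12 were higher and 3 lower for wild-type. These shares are given beside the backgrounds above and rest on few genes.

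In cholesterol synthesis, 7 of 22 genes had peaks. FDPS, which makes the farnesyl diphosphate that FDFT1 joins, had 6, 10 and 0 peaks in the order of vector, wild-type and G325E, and LSS, which cyclises the epoxide that SQLE makes, had 0, 0 and 7, all of them in the 5′-UTR and promoter-TSS classes. The sterol reductase LBR had 6, 8 and 3 peaks, and the sterol isomerase EBP 9, 5 and 1. FDPS and LSS thus had peaks in different lists, whereas FDPS, LBR and EBP all had peaks in vector and wild-type.

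In fatty acid synthesis, 7 of 23 genes had peaks. SLC25A1, which exports the citrate that ACLY cleaves from mitochondria, had 21, 18 and 11 peaks, and the desaturase FADS1 had 9, 8 and 10. The elongase ELOVL6 had 7, 9 and 0, and the acyl-CoA synthetase ACSL3 had 0, 0 and 8, of which 5 were in the 5′-UTR and promoter-TSS classes. Among SREBP regulators and genes of cholesterol uptake and storage, 2 of 15 had peaks, among them SREBF2, a sterol-regulated transcription factor, with 0, 6 and 0. Among genes of glycerophospholipid and triglyceride synthesis, 5 of 23 had peaks, including the phosphatidylserine synthase PTDSS2 with 0, 18 and 5, its relative PTDSS1 with 1, 1 and 7, the choline kinase CHKA with 5, 0 and 9 and the acyltransferase DGAT1 with 7, 7 and 0.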

How the data were processed

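Ribosome-protected fragments of 3 HEK293T libraries were analysed from 1 deposited peak list per library, grouped by sample title. The deposited values are peak positions (start and end) and distances to the nearest transcription start site, called by the authors in each library separately. Per the study's methods and processing notes, adapters were trimmed with cutadapt, reads were aligned with BWA 0.5.5 to hg19 (GRCh37), duplicates were removed, and peaks were called on base coverage, merged and reviewed by eye. The HOMER-style annotation has no stated version. Coverage is not in the lists, and a cut-off makes a weak signal indistinguishable from none.

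Peaks were counted per gene and scaled to the same total. The ratio calls added 0.5 to each number and needed at least 3 peaks over both lists. Positions were computed on GENCODE release 44 canonical transcripts lifted to GRCh37, peaks whose end precedes their start (163 vector, 272 wild-type and 236 G325E peaks) were taken as 1 base, and sequences were read from GRCh37. Intervals were exact Poisson, exact binomial or Wilson at 95%. No test was run between constructs. The 2-fold calls were checked on simulated peak numbers, with limits set only for a large change and numbers far above those observed. The intervals were not part of that check. Software was Python 3.11.15 with numpy 2.4.6, pandas 2.3.3, scipy 1.17.1, pyfaidx 0.9.0.4 and matplotlib 3.10.9.

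The members and lists were chosen with earlier results of these data known. All 8 members were named. Other lipid genes were named with at least 5 peaks in any list, or at least 3 in exactly 1 list, and a few that meet this rule are not reported here. The comparisons of FASN and SQLE with all genes of at least 10 peaks, the marker genes and the housekeeping genes were chosen after seeing the data.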

Additional observations from a re-analysis of the deposited data

How the results depend on the processing

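The members' calls at 2-fold were recomputed under 11 alternatives, among them other scalings, a pseudocount of 1, at least 10 peaks per gene, gene names only, the gene's strand only and merged peaks. Of the recomputed counts, shares and means that answer a comparison, 96 stayed within their limits and 6 did not, and of the single-gene ratios 70 did and 2 did not. The limits for ratios were wide: SCD, G325E over wild-type, went from 1.27 to 2.80 by bases covered and counted as within. Several ratios that turned direction, given below, also counted as within. With bases covered in place of peaks, 1 member (SCD) was at least 2-fold higher in G325E than in wild-type, and with peaks under 10 bp apart merged, 1 member (ACLY) was at least 2-fold lower in G325E than in vector. The mean coding position taken over genes was 0.289 in vector and 0.457 in wild-type. The members' summed share, taken within transcript classes (5′-UTR, coding, 3′-UTR), was 0.568% in wild-type and 0.663% in G325E, since fewer peaks were counted in all. Ratios of G325E over wild-type turned for FASN (1.46 by gene name, 1.13 scaled to transcript classes, 1.22 within them), for SQLE (0.625 by longest peaks, 0.905 by bases) and for ACLY (1.04 scaled to transcript classes). ACLY over vector turned to 1.15 (median scaling) and 1.01 (gene name) for wild-type and to 1.00 (gene name) for G325E. Requiring 10 peaks left SCD out over vector, with 2 members higher. It lowered the genes called from 779 to 298 higher and from 1032 to 246 lower (G325E over wild-type), from 862 to 238 and from 620 to 189 (G325E over vector), and from 862 to 174 and from 444 to 200 (wild-type over vector). Fewer genes were tested (1398 of 3072, 1071 of 2518 and 1211 of 2683), and a smaller share of them was called, except for genes lower in wild-type than in vector (16.5% in both). Restriction to these classes gave 436 higher and 383 lower for G325E over vector and 572 and 297 for wild-type over vector. Genes lower in wild-type than in vector were 171 with scaling by the median ratio, 255 by bases covered, and genes higher were 553 by longest peaks, which also gave 685 lower for G325E over wild-type. Scalings shifted the median log2 ratio of all genes to between -0.34 and 0.39. No paired analysis was possible because each construct had 1 library. With 5 peaks or fewer, as on SCD, counting error alone spans several-fold, and the reads behind each peak are unknown.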
